A study of Mus musculus with 15 samples.

Results

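The eosinophil granule genes are the 3 genes Prg2, Prg3 and Epx, chosen by symbol among the 52327 named entries of a table of read counts, and all 3 were among the 13123 genes tested. They were followed across 15 mRNA libraries of a mouse cell line, named HoxB in the labels and typed there only as Blood. There were 5 groups of 3 libraries each. Cells labelled EMPTY held control vectors, RUNX1-ETO_ONLY cells held the leukaemia fusion of RUNX1 with ETO, and CSF3R_ONLY cells held the G-CSF receptor CSF3R carrying the T618I change. The RUNX1-ETO_FIRST and CSF3R_FIRST groups held both alleles and differ in which came first, the question that the series asks. The labels give no promoter, clone number, culture condition or passage for any group, and do not say whether the libraries of a group came from separate cultures. The p-values below therefore measure the spread between these libraries, which may be technical.

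Eosinophils store a small set of very basic proteins and a peroxidase in crystalloid granules, and release them onto parasites and into inflamed airways. Prg2 encodes the precursor of major basic protein, which forms the crystalline core of the granule and damages membranes. Prg3 encodes a paralog of it, and Epx encodes eosinophil peroxidase, a haem enzyme that makes hypohalous acids and is related to the myeloperoxidase of neutrophils. These genes are switched on as progenitors become eosinophils, where GATA, C/EBP and PU.1 factors are known to act on granule genes, and human major basic protein is also found in basophils.

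In the mm10 build, Prg2 (ENSMUSG00000027073.5) lies at chr2:84980461-84983632 on the plus strand with 6 exons and a transcript of 838 bases. Prg3 (ENSMUSG00000027072.13) follows on the same strand at chr2:84988215-84993886 with 6 exons and 949 bases. Epx (ENSMUSG00000052234.2) lies at chr11:87864000-87875536 on the minus strand with 13 exons and 2689 bases. The treatment of reads that fit more than 1 gene was not given in the sources used here, so the likeness of the paralogs was measured on GENCODE M21 transcripts. Prg2 and Prg3 were 66.5% identical over 816 aligned bases, with a longest identical run of 23 bases and 0 shared words of 31 bases. Their coding exon 4, of 132 bases each, shows how the copies differ. Prg2 exon 4 is at chr2:84982589-84982720 and Prg3 exon 4 at chr2:84991402-84991533. They are printed 5′ to 3′ on the plus strand, with the 40 bases that differ in capitals.
Prg2 exon 4: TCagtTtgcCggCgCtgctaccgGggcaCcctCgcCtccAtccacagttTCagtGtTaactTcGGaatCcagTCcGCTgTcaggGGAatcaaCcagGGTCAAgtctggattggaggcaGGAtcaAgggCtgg
Prg3 exon 4: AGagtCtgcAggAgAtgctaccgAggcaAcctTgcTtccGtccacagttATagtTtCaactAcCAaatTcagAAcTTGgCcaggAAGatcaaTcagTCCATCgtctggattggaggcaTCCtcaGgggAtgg
The differing bases are spread along the exon, which is 69.7% identical between the copies. Epx and its relative Mpo were 72.7% identical over 2356 aligned bases, with a longest identical run of 26 bases and 0 of 2659 words of 31 bases shared.

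The 250 bases before the transcription start were available from RefSeq (GRCm38.p6) for Prg3 and Epx. They are shown because Prg3 rose with the receptor allele alone and Epx did not pass the test there, and were searched on both strands for 4 kinds of motif. The GATA motif was read as AGATAA and its relative AGATAG, then TGATAA and its relative TGATAG. The others were C/EBP (TTNNGNAA), PU.1 (GAGGAA) and RUNX (TGTGGT or TGCGGT). Capitals mark matches, and both sequences run 5′ to 3′ on the gene's own strand.
Prg3, chr2:84987965-84988214, plus strand: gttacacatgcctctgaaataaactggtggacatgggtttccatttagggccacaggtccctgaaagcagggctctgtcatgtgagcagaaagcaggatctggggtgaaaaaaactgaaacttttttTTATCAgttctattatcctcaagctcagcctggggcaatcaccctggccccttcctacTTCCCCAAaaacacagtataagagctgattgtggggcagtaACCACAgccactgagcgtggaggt
Epx, chr11:87875537-87875786, minus strand: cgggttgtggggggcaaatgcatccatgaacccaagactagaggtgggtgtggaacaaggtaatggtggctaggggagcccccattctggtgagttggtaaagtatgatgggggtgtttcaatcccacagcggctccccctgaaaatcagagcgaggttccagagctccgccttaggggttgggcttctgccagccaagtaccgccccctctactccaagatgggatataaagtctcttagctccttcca
Prg3 held 3 matches that did not overlap, each read on the opposite strand. They were a GATA match (TTATCA, 123 to 118 bases before the start), a C/EBP match (TTCCCCAA, 65 to 58 bases before) and a RUNX match (ACCACA, 24 to 19 bases before). Neither window held the PU.1 letters, and the Epx window held 0 matches of any kind. Of 32851 promoter windows of this length, 26.5% held the GATA letters, 36.8% the C/EBP letters, 23.3% the PU.1 letters and 18.6% the RUNX letters. A match describes the letters only and says nothing of binding in these cells.

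Total counts per library were 17003189 to 18173954. Runx1t1, the mouse gene matching ETO, had 0 counts in every EMPTY and CSF3R_ONLY library and means of 448 to 712 CPM (counts per 1000000 counts of a library) in the 3 groups with the fusion, as their labels require. Csf3r was read in every group and cannot show the T618I change. Its means were 420 CPM in EMPTY, 525 in RUNX1-ETO_ONLY, 622 in CSF3R_ONLY, 420 in RUNX1-ETO_FIRST and 398 in CSF3R_FIRST. In the groups with both alleles the Csf3r mean was thus not above that of EMPTY. In 4 libraries (replicate 3 of EMPTY, of RUNX1-ETO_ONLY and of CSF3R_FIRST, and replicate 1 of RUNX1-ETO_FIRST), the deviation of a gene from its group mean correlated with transcript length at −0.517 to −0.297, over 12820 genes that are not independent. The other 11 libraries lay between −0.065 and 0.395. Results that changed without those 4 libraries are given with both values.

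Levels per kilobase were taken over the merged exons of a gene's transcripts, 838 bases for Prg2, 949 for Prg3 and 2737 for Epx. By that measure Prg2 had the highest level of the granule genes in every group. It was read at 19.3, 20.3 and 31.7 CPM in EMPTY, and at 98.8, 99.9 and 96.7 CPM in CSF3R_ONLY. Every library with the receptor allele alone thus held more Prg2 than any control library. The RUNX1-ETO_ONLY libraries held 2.55, 3.75 and 2.62 CPM, from 50, 73 and 50 counts. The RUNX1-ETO_FIRST libraries held 3.42, 2.59 and 3.38 CPM and overlapped them. CSF3R_FIRST libraries, at 11, 11 and 14.4 CPM, lay between these low groups and EMPTY without touching either. In means, Prg2 stood at 98.5 ± 1.60 CPM in CSF3R_ONLY (SD, n = 3, as for the means that follow), 23.8 ± 6.86 in EMPTY, 12.1 ± 1.93 in CSF3R_FIRST, 3.13 ± 0.472 in RUNX1-ETO_FIRST and 2.97 ± 0.674 in RUNX1-ETO_ONLY. Each step in that order passed the test except the last (adjusted p = 0.870, edgeR quasi-likelihood test, Benjamini-Hochberg over 13123 genes).

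Prg3 followed the same order of means at lower levels. The EMPTY libraries held 4.24, 4.06 and 5.34 CPM, and the CSF3R_ONLY libraries 33.7, 38.2 and 35.7 CPM. RUNX1-ETO_ONLY libraries held 1, 5 and 8 counts, or 0.0510, 0.257 and 0.419 CPM, the fewest of any granule gene in any group. The first of these lies under 0.153 CPM, the level that 3 counts would give in that library. RUNX1-ETO_FIRST libraries held 16, 10 and 13 counts (0.897, 0.550 and 0.733 CPM), all above every RUNX1-ETO_ONLY library. CSF3R_FIRST libraries held 2.59, 2.83 and 4.97 CPM and overlapped EMPTY. The means were 35.8 ± 2.25 in CSF3R_ONLY, 4.54 ± 0.692 in EMPTY, 3.46 ± 1.31 in CSF3R_FIRST, 0.727 ± 0.174 in RUNX1-ETO_FIRST and 0.242 ± 0.185 in RUNX1-ETO_ONLY. Only EMPTY and CSF3R_FIRST were neighbours in this order whose difference did not pass the test (edgeR adjusted p = 0.192).

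Epx differed from both in being highest in the control cells. The EMPTY libraries held 77, 64 and 46 counts (4.24, 3.56 and 2.76 CPM), and the CSF3R_ONLY libraries 45, 41 and 44 counts (2.63, 2.37 and 2.54 CPM), just below them. The 9 libraries of the 3 groups with the fusion all held between 7 and 13 counts, at 0.395 to 0.788 CPM, and overlapped one another. The means were 3.52 ± 0.742 CPM in EMPTY, 2.51 ± 0.128 in CSF3R_ONLY, 0.681 ± 0.133 in CSF3R_FIRST, 0.613 ± 0.189 in RUNX1-ETO_FIRST and 0.586 ± 0.114 in RUNX1-ETO_ONLY. Of the 4 steps in this order, only that from CSF3R_ONLY to CSF3R_FIRST passed the test. Over all 10 pairs of groups, Prg2 and Prg3 each differed in 9 and Epx in 6. Per kilobase of merged exons, Prg2 stood above Prg3 and Prg3 above Epx in each group's mean. Examples are 117, 37.8 and 0.918 CPM per kilobase in CSF3R_ONLY and 28.4, 4.79 and 1.29 in EMPTY. In RUNX1-ETO_ONLY, Prg3 at 0.255 ± 0.194 and Epx at 0.214 ± 0.0418 overlapped, with 1 to 8 Prg3 counts per library. In bulk RNA such as this, fewer cells with a transcript and less of it per cell cannot be told apart.

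**Figure D1:**
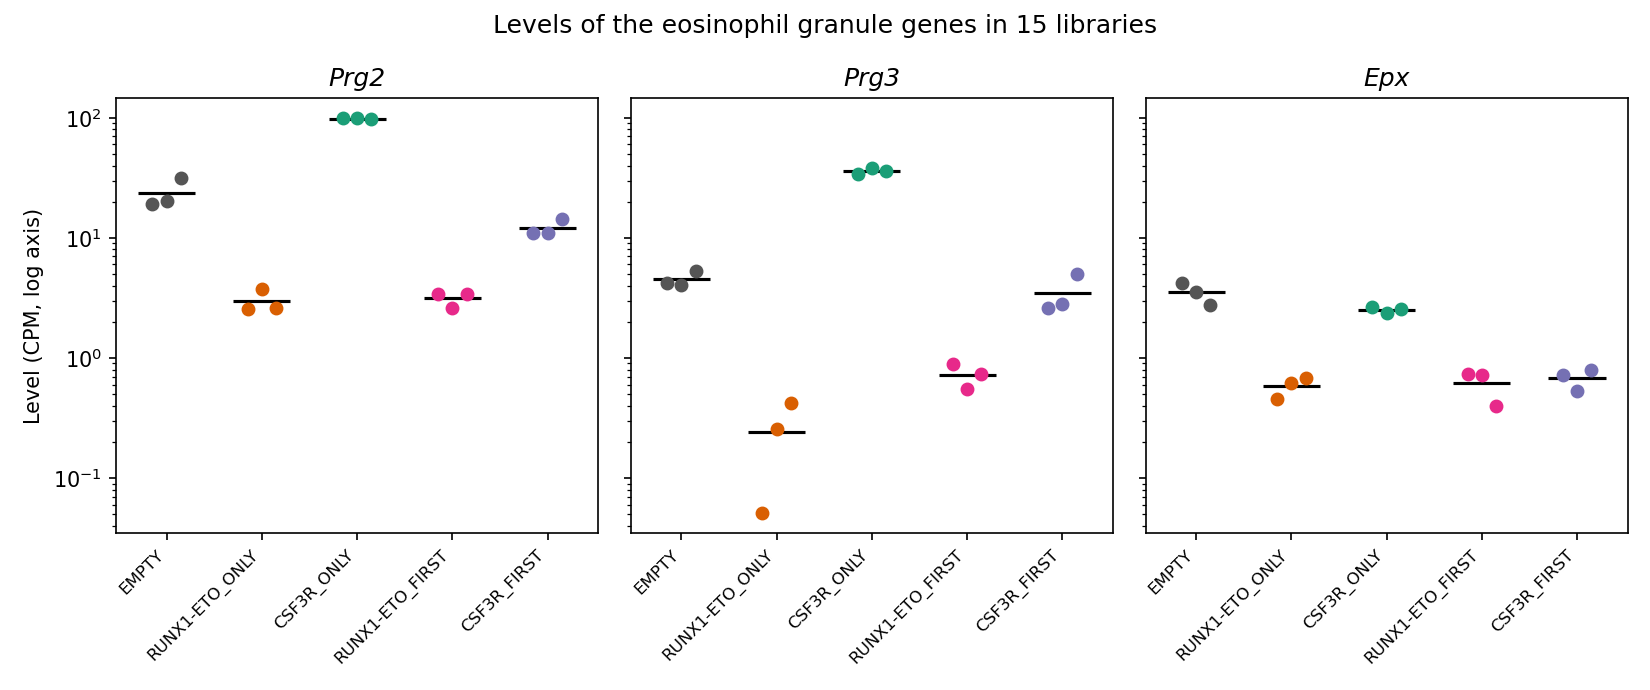
Level of Prg2, Prg3 and Epx in each of the 15 libraries, in CPM on a log axis, by group. Points are libraries and bars are group means (n = 3). CSF3R_ONLY is highest for Prg2 and Prg3, at 98.5 and 35.8 CPM, while EMPTY is highest for Epx at 3.52 CPM.

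The order of the alleles was addressed by setting RUNX1-ETO_FIRST against CSF3R_FIRST. Both major basic protein genes were lower when the fusion came first, and Epx was not shown to differ. Prg2 was 3.87-fold lower (log2 −1.95, SE 0.213, edgeR adjusted p = 1.17e-05), with a 95% confidence interval of 2.83- to 5.30-fold. For Prg3 the difference was 4.73-fold (log2 −2.24, SE 0.323, edgeR adjusted p = 1.66e-04), with an interval of 2.93- to 7.63-fold. In both genes all 3 RUNX1-ETO_FIRST libraries lay below all 3 CSF3R_FIRST libraries. The share of all tested genes whose libraries lay apart in this way was not counted, here or in the other comparisons. Epx stood at log2 −0.15 (SE 0.325, edgeR adjusted p = 0.820), and its interval ran from 1.79-fold lower to 1.46-fold higher, so a difference of the size seen in Prg2 lies outside it. The granule genes thus gave 2 of 3 called lower, where 11.1% of all tested genes were called lower and 18.3% in either direction.

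Against the control cells, all 3 granule genes were lower with the fusion alone. Prg3 fell 18.3-fold (log2 −4.20, SE 0.376, edgeR adjusted p = 2.23e-07), Prg2 7.96-fold (log2 −2.99, SE 0.205, adjusted p = 9.44e-09) and Epx 5.97-fold (log2 −2.58, SE 0.260, adjusted p = 8.67e-07). The libraries of both groups were fully apart for each gene, which describes these libraries and was not counted over all tested genes. All 3 were thus called lower, where 18.2% of tested genes were lower and 39.0% were called in either direction. Prg3 rests on 14 counts over the RUNX1-ETO_ONLY group, and its interval of 10.5- to 31.9-fold is the widest of the set. Without RUNX1-ETO_ONLY replicate 3, which held 8 of those counts, the Prg3 difference was log2 −4.82.

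The receptor allele alone gave a split. Prg3 rose 7.89-fold over EMPTY (log2 2.98, SE 0.212, edgeR adjusted p = 1.98e-08) and Prg2 rose 4.15-fold (log2 2.05, SE 0.168, adjusted p = 9.69e-08). That made 2 of 3 called higher, where 19.9% of tested genes were higher and 33.1% were called in either direction. Epx went the other way at log2 −0.49 (SE 0.217, edgeR adjusted p = 0.101), which did not pass, although each CSF3R_ONLY library lay below each EMPTY library. EMPTY replicate 3, a library low in long transcripts, held the least Epx and the most Prg2 of the controls. Without it the Epx difference passed the test (log2 −0.66, edgeR adjusted p = 0.0425), as it did without all 4 such libraries (−0.65, 0.0260) and by limma-voom with sample weights (−0.61, 0.00407). Between the single alleles, RUNX1-ETO_ONLY lay below CSF3R_ONLY by 145-fold in Prg3 (log2 −7.18, or −7.80 without RUNX1-ETO_ONLY replicate 3), 33-fold in Prg2 and 4.26-fold in Epx. All 3 passed there, against 46.0% of tested genes called in either direction.

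Cells with both alleles held less Prg2 and Epx than the controls in either order. With the fusion first, Prg2 fell 7.57-fold, Prg3 6.20-fold and Epx 5.69-fold from EMPTY (edgeR adjusted p = 9.39e-09, 3.99e-06 and 1.01e-06). All 3 fell there, against 20.2% of tested genes lower and 44.0% called in either direction. With the receptor first, Epx fell 5.14-fold (edgeR adjusted p = 1.40e-06) and Prg2 fell 1.95-fold (adjusted p = 2.52e-04). Prg3 was at log2 −0.39 (SE 0.243, edgeR adjusted p = 0.192). CSF3R_FIRST replicate 3 held the most Prg3 of its group, and without it that difference passed (log2 −0.73, edgeR adjusted p = 0.0164), as it did without all 4 libraries low in long transcripts (−0.61, 0.00931). In this comparison 2 of 3 were called lower, against 26.7% of tested genes lower and 53.5% called in either direction.

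Set against the single alleles, RUNX1-ETO_FIRST cells lay close to RUNX1-ETO_ONLY cells. Prg2 differed by log2 0.07 (SE 0.245, edgeR adjusted p = 0.870, interval from 1.36-fold lower to 1.51-fold higher) and Epx by 0.07 (SE 0.325, adjusted p = 0.911, 1.54-fold lower to 1.69-fold higher). Prg3 was 2.96-fold higher (log2 1.56, SE 0.522, edgeR adjusted p = 0.0372), which made 1 of 3 called against 26.3% of tested genes. That call was lost when any of 4 libraries was left out (edgeR adjusted p = 0.127 without RUNX1-ETO_FIRST replicate 1, 0.0807 without its replicate 3, 0.141 without RUNX1-ETO_ONLY replicate 1 and 0.0824 without its replicate 2). Without RUNX1-ETO_ONLY replicate 3 the value was log2 2.19. CSF3R_FIRST cells held 14-fold more Prg3 (log2 3.81, or 4.43 without that library) and 4.07-fold more Prg2 than RUNX1-ETO_ONLY cells (edgeR adjusted p = 1.04e-06 and 1.18e-06), while Epx differed by log2 0.21 (adjusted p = 0.631). Here 2 of 3 were called, against 48.2% of tested genes.

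Both orders lay far below CSF3R_ONLY. With the fusion first, Prg3 was 48.9-fold, Prg2 31.4-fold and Epx 4.06-fold lower, and all 3 passed against 39.6% of tested genes. With the receptor first, Prg3 was 10.3-fold, Prg2 8.11-fold and Epx 3.67-fold lower, and all 3 passed against 44.9% of tested genes. The largest edgeR adjusted p among these 6 differences was 3.01e-05, for Epx with the receptor first.

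Whether the levels with both alleles equal the sum of the changes with each allele was tested on the log2 scale, as the level with both alleles, less that with each allele alone, plus that of EMPTY. With the fusion first, Prg2 lay 3.95-fold below that sum (log2 −1.98, SE 0.296, edgeR adjusted p = 2.17e-04). It was the 1 call of 3, against 15.8% of tested genes. Prg3 was at −1.42 (SE 0.645, edgeR adjusted p = 0.166, or 0.0486 by DESeq2, which gave −1.38, and −0.79 without RUNX1-ETO_ONLY replicate 3) and Epx at 0.56 (SE 0.393, adjusted p = 0.403). With the receptor first, 0 of 3 passed by edgeR against 22.9% of tested genes. Prg2 was at −0.03 (SE 0.296, adjusted p = 0.965), Prg3 at 0.83 (1.45 without RUNX1-ETO_ONLY replicate 3, adjusted p = 0.260 with it) and Epx at 0.70 (adjusted p = 0.219), with unadjusted p of 0.929, 0.120 and 0.0929, and DESeq2 and limma-voom called 0 as well. With the libraries low in long transcripts dropped, Prg2 moved to −0.47 and passed (edgeR adjusted p = 0.0421). These contrasts and the comparisons above share control and single-allele libraries and are not independent of each other.

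**Figure D2:**
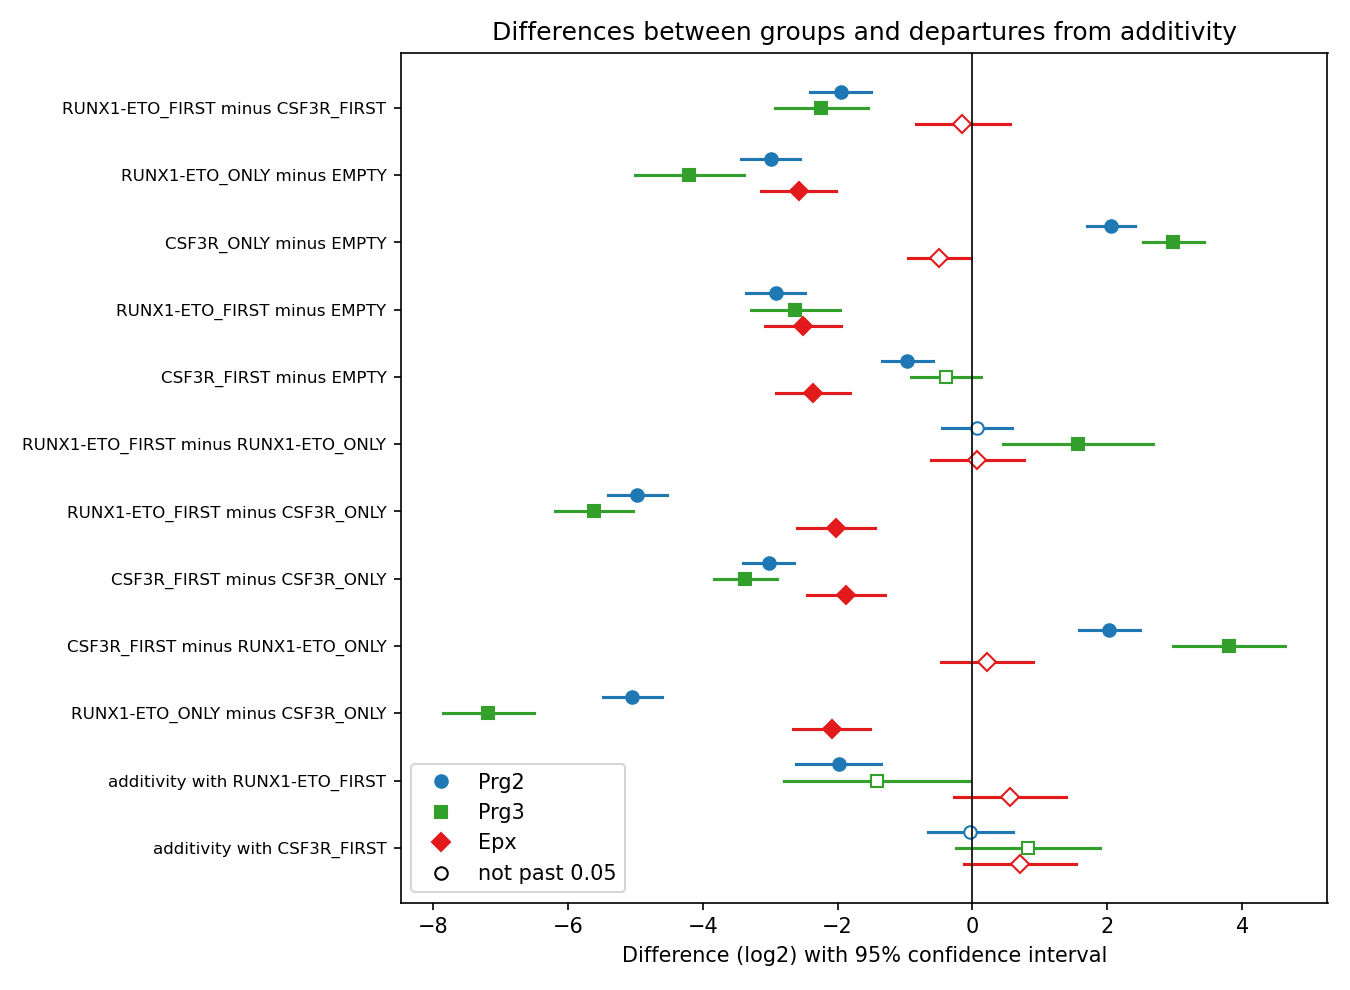
Differences between groups and departures from additivity for Prg2, Prg3 and Epx, on the log2 scale, with 95% confidence intervals. Filled symbols passed an adjusted p of 0.05 (edgeR) and open symbols did not. In the top comparison Prg2 and Prg3 lie at −1.95 and −2.24 while Epx lies at −0.15.

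The balance of Prg2 and Prg3 was set out library by library. Prg3 made up 14.4% to 18% of the Prg2 and Prg3 counts in the EMPTY libraries and 25.4% to 27.6% in CSF3R_ONLY, a quantity that needs no library size. The groups did not overlap, and the log2 ratio of Prg3 to Prg2 counts, each plus 0.5, was 0.89 higher (two-sided exact permutation p = 0.10, the smallest that 3 against 3 libraries can give, so no pair of groups could reach 0.05). In RUNX1-ETO_ONLY the share was 1.96%, 6.41% and 13.8%, with exact binomial 95% intervals of 0.0496% to 10.4%, 2.11% to 14.3% and 6.15% to 25.4%. All 3 values lay below the EMPTY range. The intervals cover counting error only, and that of replicate 3 reaches into the EMPTY range while those of replicates 1 and 2 end below it. The EMPTY values carry such intervals too, 14.5% to 22.0%, 13.3% to 20.5% and 11.7% to 17.4% in replicates 1, 2 and 3. That of RUNX1-ETO_ONLY replicate 2 overlaps those of EMPTY replicates 2 and 3, and that of RUNX1-ETO_ONLY replicate 1 overlaps none. With 2 added to each count in place of 0.5, the log2 ratios of RUNX1-ETO_ONLY and EMPTY overlapped (exact permutation p = 0.200). With the fusion first the shares were 17.5% to 20.8%, and with the receptor first 19.0% to 25.7%. These groups overlapped each other (exact permutation p = 0.300), and the shares with the fusion first also overlapped those of EMPTY.

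**Figure D3:**
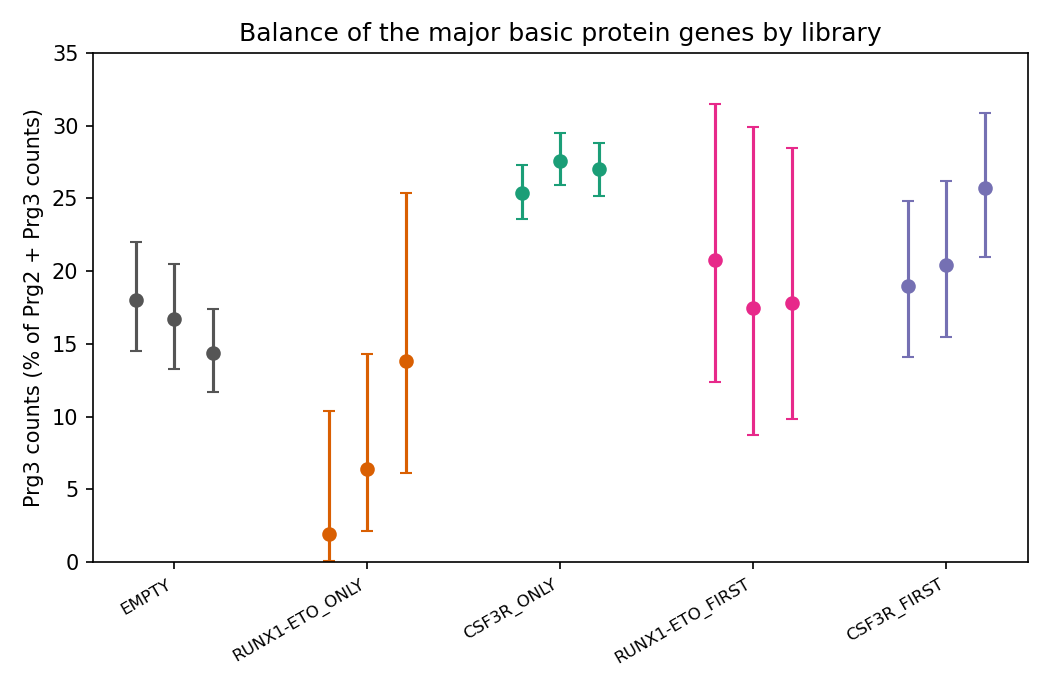
Share of Prg3 in the Prg2 and Prg3 counts of each library, in percent, with exact binomial 95% intervals that cover counting error only. The 3 CSF3R_ONLY libraries sit at 25.4% to 27.6%, above all EMPTY libraries at 14.4% to 18%.

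The genes beside Prg2 and Prg3 did not share 1 pattern. Rtn4rl2, a Nogo receptor family member at chr2:84871924-84886710, averaged 20.2 CPM in EMPTY, 3.75 with the fusion alone and 111 with the receptor allele alone, so it fell and rose with the alleles as Prg2 did (log2 −2.43 and 2.46, edgeR adjusted p = 6.41e-10 and 1.12e-10). In the double groups it stayed above EMPTY, at 34.5 and 40.2 CPM, and was not shown to differ by order (log2 −0.22, edgeR adjusted p = 0.186). Slc43a3, an amino acid carrier family member that lies closer, was at 186 CPM in EMPTY and 171 in CSF3R_ONLY and was higher with the fusion first (log2 0.55, edgeR adjusted p = 4.64e-05). On the other side, the ATP-gated channel gene P2rx3 was highest in EMPTY at 1.75 CPM and at or below 0.387 elsewhere. Ssrp1, a histone chaperone subunit, was at 208 to 298 CPM in every group.

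Epx lies 197 bases from Mks1, a cilium gene on the opposite strand. Mks1 averaged 6.46 to 9.27 CPM over the groups and did not fall with the fusion alone (log2 0.04, edgeR adjusted p = 0.839). The nearest tested gene after it was Mpo, the neutrophil and monocyte peroxidase, which is the abundant member of the family here. Mpo averaged 45076 CPM in EMPTY, 25625 in CSF3R_ONLY, 18235 in RUNX1-ETO_ONLY, 13805 with the fusion first and 12432 with the receptor first, and fell in all 4 groups against EMPTY. Like Epx, Mpo was not shown to differ by order (log2 0.15, edgeR adjusted p = 0.273). The balance of the 2 genes was set out without a test. For every 1000000 Mpo counts, Epx counts numbered 59.4 to 101 in EMPTY and 92.9 to 103 in CSF3R_ONLY, against 24.9 to 36.6 with the fusion alone, 28.5 to 54.8 with it first and 43.5 to 66.3 with the receptor first. All RUNX1-ETO_ONLY and RUNX1-ETO_FIRST values thus lay below all EMPTY values, on 7 to 13 Epx counts per library. Those of CSF3R_ONLY and CSF3R_FIRST overlapped EMPTY. Of the other haem peroxidases, Lpo held 0 to 3 counts per library, Duox2 held at most 1, and Pxdn and Duox1 were at 0 throughout.

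The genes of other eosinophil granule proteins, the Ear ribonucleases, held almost no counts. The likeness of these genes to one another was not measured, and the treatment of reads that fit more than 1 gene was not given. Their low counts can therefore not be told apart from reads left out of the counting. Of Ear1, Ear2, Ear6, Ear10 and Ear14, 0 of 5 were abundant enough to test (without the filter on low counts, 1 rose in CSF3R_ONLY against EMPTY), and all 5 were at 0 counts in the 6 libraries with both alleles. Ear6 held 5 to 11 counts per library in CSF3R_ONLY, 0 to 2 in EMPTY and 0 to 1 in RUNX1-ETO_ONLY. Ear1 and Ear2 held at most 1 count in any library, and Ear10 and Ear14 were at 0. Ccr3, the eotaxin receptor that guides eosinophils into tissue, was not tested either, with 0 to 9 counts per library.

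Of 9 listed receptors that act on eosinophils and their precursors, 8 were tested. By order, 1 was higher and 4 were lower with the fusion first (median log2 −0.35, against 0.00 and 18.3% called over all tested genes). Against EMPTY, 6 rose and 2 fell with the fusion alone (median 1.60, against 0.01 and 39.0% called). With the receptor allele alone 8 rose (median 1.69, against 0.00 and 33.1% called). Il5ra, the chain that gives eosinophil precursors their response to interleukin 5, averaged 1.77 CPM in EMPTY, 8.92 in RUNX1-ETO_ONLY, 4.42 in CSF3R_ONLY, 5.39 in RUNX1-ETO_FIRST and 4.02 in CSF3R_FIRST. It thus rose 5.01-fold with the fusion alone (edgeR adjusted p = 2.91e-08), where the granule genes fell. Siglecf, a sialic acid lectin of eosinophils, was lower in the groups with the fusion, as Epx was, at 102 CPM in EMPTY, 143 in CSF3R_ONLY and 59.7 with the fusion alone, then 37.7 and 30.6 in RUNX1-ETO_FIRST and CSF3R_FIRST. It rose 1.40-fold with the receptor allele (edgeR adjusted p = 1.25e-04) and was the 1 receptor higher with the fusion first (1.23-fold, adjusted p = 0.0162), a count that became 0 when any of 4 of the 6 libraries was left out.

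Of the remaining receptors, some are shared with mast cells and basophils. Il1rl1, the interleukin 33 receptor, averaged 9.57 CPM in EMPTY and 1989 in CSF3R_FIRST, and was 2.04-fold lower with the fusion first (edgeR adjusted p = 2.50e-04). Csf2rb2, a beta chain for interleukin 3, rose from 74.5 CPM in EMPTY to 442 with the fusion alone and 1695 with the receptor allele alone. Hrh4, a histamine receptor, held 0 to 1 counts in the EMPTY libraries and 56 to 72 in CSF3R_FIRST. Csf2ra, the alpha chain for GM-CSF, averaged 180 CPM in EMPTY, fell 2.59-fold with the fusion alone (edgeR adjusted p = 8.30e-06) and rose 1.38-fold with the receptor allele alone (adjusted p = 0.0414).

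Among transcription factors of the eosinophil path, Gata1 and Gata2 rose and Cebpa, Cebpb and Cebpe fell against EMPTY in each group with the fusion. All 12 listed genes were tested. By order, 2 were higher and 3 lower with the fusion first (median log2 −0.19, against 0.00 and 18.3% called over all tested genes). The lower number was 6 by limma-voom and 8 when those 4 libraries low in long transcripts were dropped. Against EMPTY, 6 rose and 5 fell with the fusion alone (median 0.16, against 0.01 and 39.0% called over all tested genes). With the receptor allele alone 9 rose and 1 fell (median 0.65, against 0.00 and 33.1% called). Cebpe, which is needed for late granule genes of neutrophils and eosinophils, had group means in the same order as Prg2 and Prg3. The means of Cebpb, Spi1 and the receptor gene Csf2ra stood in that order too. Cebpe averaged 280 CPM in CSF3R_ONLY, 208 in EMPTY, 54.2 in CSF3R_FIRST, 38.8 in RUNX1-ETO_FIRST and 28.1 in RUNX1-ETO_ONLY. Its fall with the fusion alone was 7.41-fold (edgeR adjusted p = 1.57e-10), its rise with the receptor allele 1.35-fold (adjusted p = 0.0174) and its difference by order 1.40-fold (adjusted p = 0.0196).

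Gata1, a factor that directs eosinophil, mast and erythroid fates, rose against EMPTY in every other group. It averaged 3.44 CPM in EMPTY, 42.1 in RUNX1-ETO_ONLY, 34.7 in CSF3R_ONLY, 65.4 in RUNX1-ETO_FIRST and 136 in CSF3R_FIRST, and was 2.09-fold lower with the fusion first (edgeR adjusted p = 1.19e-05). Gata2, active in progenitors and mast cells, averaged 136, 590, 497, 1214 and 1432 CPM in the same groups and was not shown to differ by order (adjusted p = 0.0575). Cebpa, a factor of early granulocyte fate, averaged 745, 376, 653, 422 and 372 CPM. Spi1, which encodes PU.1, averaged 562, 239, 700, 292 and 330. Irf8, a monocyte factor, fell 10.7-fold with the receptor allele alone, to 0.928 from 9.96 CPM (edgeR adjusted p = 6.10e-11), in the group where Prg2 and Prg3 were highest. It was 2.43-fold higher with the fusion first (adjusted p = 8.07e-07). Id2, an inhibitor of helix-loop-helix factors, was 2.82-fold lower with the fusion first (adjusted p = 2.25e-08).

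Genes for packing and processing granule contents followed another order than the granule genes. Of 9 listed, 8 were tested, and Vamp7 had no entry in the table. By order, 6 were lower and 0 higher (1 by limma-voom) with the fusion first (median log2 −0.63, against 0.00 and 18.3% called over all tested genes). With the fusion alone 3 rose and 1 fell (median 0.22, against 0.01 and 39.0% called), or 5 rose without EMPTY replicate 3. With the receptor allele alone 6 rose (median 0.55, against 0.00 and 33.1% called). Srgn, the proteoglycan core that holds basic proteins in granules, averaged 2278 CPM in EMPTY, 3141 in RUNX1-ETO_ONLY, 3619 in CSF3R_ONLY, 5907 in RUNX1-ETO_FIRST and 10518 in CSF3R_FIRST. Its direction by order was that of Prg2 (1.78-fold lower with the fusion first, edgeR adjusted p = 0.00210), but it rose with the fusion alone (1.38-fold, adjusted p = 0.0346). Ctsl, a lysosomal protease, was 2.44-fold lower with the fusion first (adjusted p = 5.86e-06). Cd63, a granule membrane tetraspanin, was 1.99-fold lower (adjusted p = 6.24e-05).

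The 4 lipid mediator genes were all tested. By order, 2 were lower and 0 higher with the fusion first (median log2 −0.49, against 0.00 and 18.3% called over all tested genes). These numbers were 0 lower with library sizes alone and 4 lower by DESeq2 or limma-voom. They were also 0 lower without RUNX1-ETO_FIRST replicate 3, CSF3R_FIRST replicate 2 or CSF3R_FIRST replicate 3. With the receptor allele alone all 4 rose (median 2.13, against 0.00 and 33.1% called). With the fusion alone 2 rose (median 0.32, against 0.01 and 39.0% called). Alox15, a lipoxygenase of eosinophils, held 69 to 85 counts per library in CSF3R_ONLY, 2 to 7 in EMPTY, 0 to 2 in RUNX1-ETO_ONLY, 0 to 4 with the fusion first and 1 to 10 with the receptor first. Its mean rose from 0.251 to 4.33 CPM with the receptor allele (log2 4.09, SE 0.547, edgeR adjusted p = 2.44e-05), and CSF3R_ONLY was its highest group, as for Prg2 and Prg3. Ltc4s, which makes leukotriene C4, went from 1.10 CPM in EMPTY to 15.1 with the fusion alone, and rose 13.9-fold there (adjusted p = 1.97e-08). Alox5 rose 8.27-fold with the receptor allele (adjusted p = 7.68e-14).

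**Figure D4:**
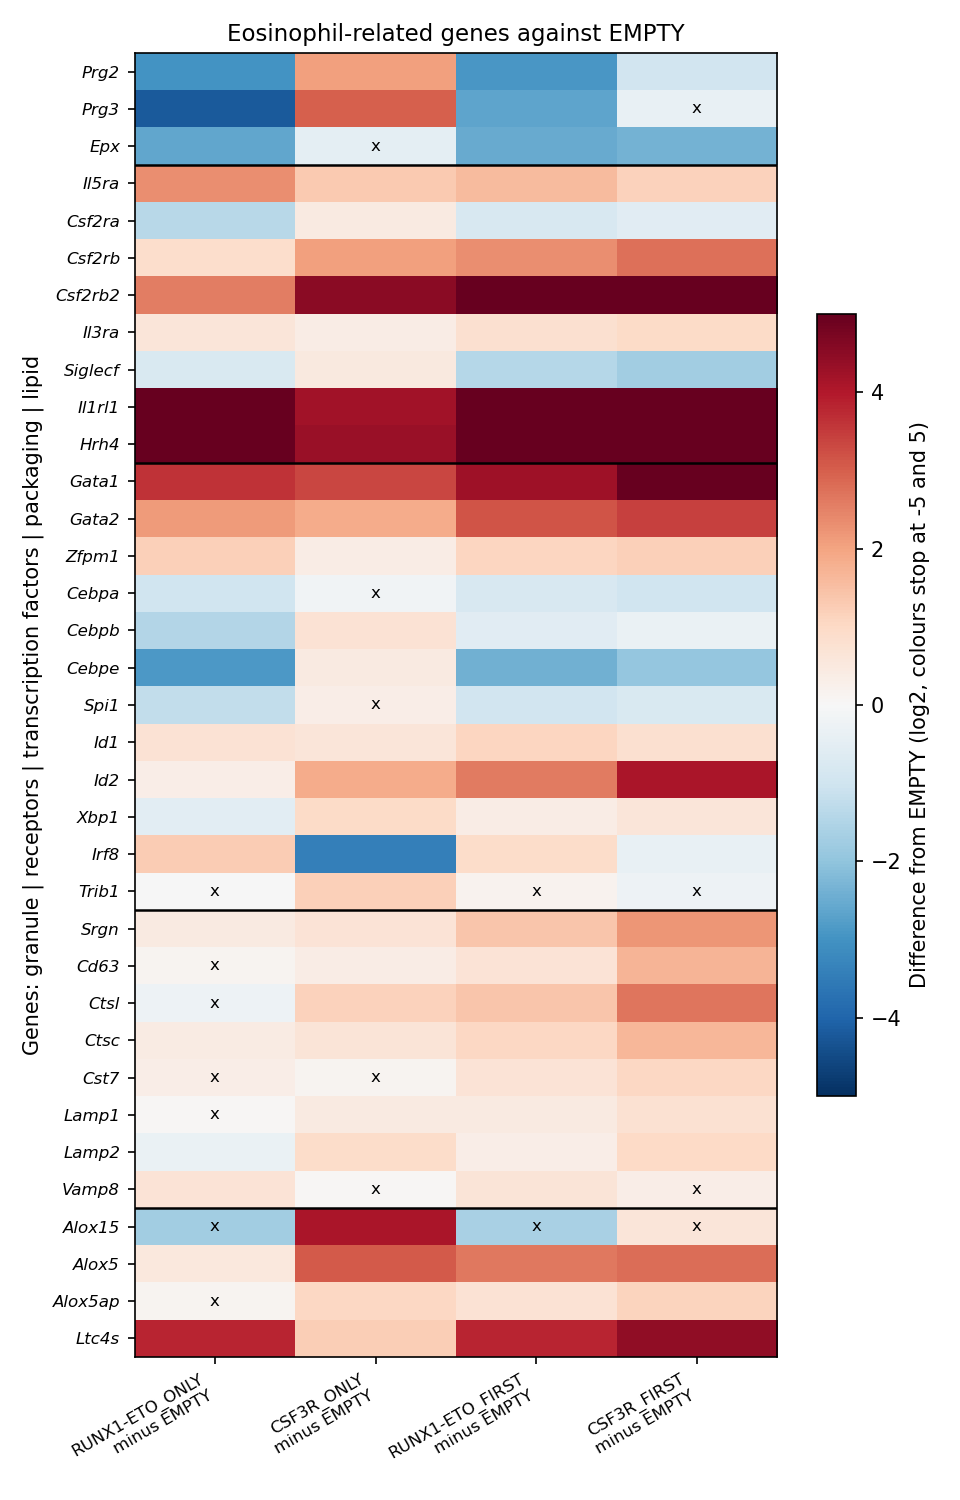
Log2 difference from EMPTY in the 4 other groups for Prg2, Prg3 and Epx and for tested genes of the receptor, transcription factor, packaging and lipid lists. Red is higher and blue lower than EMPTY, colours stop at −5 and 5, and a cross marks an edgeR adjusted p of 0.05 or more. The granule genes and Cebpe are blue with the fusion alone, at −2.99, −4.20, −2.58 and −2.89. Cebpa, Cebpb, Spi1, Csf2ra and Siglecf are among other genes that are blue there. Gata1 is red in every column.

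Markers of other cell types moved along with these results. The summed level of 12 neutrophil markers ranged from 12370 to 12902 CPM in CSF3R_ONLY, 7535 to 11275 in EMPTY, 5965 to 7210 in CSF3R_FIRST, 4046 to 4892 in RUNX1-ETO_FIRST and 3170 to 3939 in RUNX1-ETO_ONLY. These sums stood in the order of the Prg2 means, as did those of 8 monocyte markers, at 1514 to 1528, 1126 to 1310, 873 to 908, 659 to 671 and 420 to 450 CPM. Members of both lists broke that order, and a few abundant genes weigh most in the sums. In CSF3R_FIRST against EMPTY, 6 of 12 neutrophil markers rose and 4 fell (median log2 0.46). Of 8 monocyte markers, 4 rose and 3 fell there (median 0.46, against −0.05 and 53.5% called over all tested genes). Both sums were nevertheless lower there than in EMPTY. Ctsg was highest in CSF3R_FIRST, at 3800 CPM against 3112 in EMPTY. Prtn3 fell with the receptor allele alone (log2 −0.53, edgeR adjusted p = 0.00814). F13a1 made up most of the monocyte sum in CSF3R_ONLY (1124 CPM) and EMPTY (777 CPM), while Ccr2 was highest in EMPTY at 170 CPM and Csf1r in CSF3R_FIRST at 29 CPM. Mast cell markers followed another order, with 10 genes summing to 1591 to 2045 CPM in EMPTY, 3445 to 3494 in CSF3R_ONLY, 11624 to 12720 in RUNX1-ETO_ONLY, 15480 to 18751 with the fusion first and 28012 to 32503 with the receptor first. The 4 basophil markers summed to 124 to 183 CPM in EMPTY and 3009 to 3533 in CSF3R_FIRST. By order, 10 of 10 mast cell and 4 of 4 basophil markers were lower with the fusion first (median log2 −1.38 and −0.84), as Prg2 and Prg3 were. So were 9 of 12 neutrophil and 4 of 8 monocyte markers (median −0.95 and −0.36), while 1 monocyte marker was higher. Of all tested genes 11.1% were lower, with a median of 0.00. The mast cell and basophil sums were above EMPTY in every other group, including those where the granule genes fell. Cpa3 made up most of the mast cell sum with the fusion alone, at 9435 CPM. Kit fell against EMPTY in every other group, by log2 −0.83 with the fusion alone and −1.94 with the receptor allele alone. Its fall was −1.48 with the fusion first and −0.60 with the receptor first. Gzmb was not shown to differ with the fusion alone (log2 −1.37, edgeR adjusted p = 0.295). In EMPTY, Fcer1a was the 1 listed mast cell marker at 0 counts, while Cpa3 was at 986, Hdc at 421 and Kit at 331 CPM. The part of any of these cell types in the granule gene results was not tested.

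Among the granule genes, log2 CPM of Prg2 and Prg3 correlated at r = 0.97 (rho = 0.94) over the 15 libraries, Prg2 and Epx at 0.79 (rho = 0.76) and Prg3 and Epx at 0.73 (rho = 0.74). The libraries fall into 5 groups with distinct levels, and deviations from the group means correlated at 0.51, −0.25 and 0.33. These values describe libraries that share groups and depth and carry no test. Among 8539 genes of sufficient level, those most like Prg2 over the 15 libraries included Ckap4, Itgam, Stambpl1 and Themis2 (r = 0.972 to 0.987). Those most like Prg3 were Itgam, Anxa1, Ypel5, Gadd45a and Ncf4 (0.976 to 0.986). Itgam, the integrin chain CD11b of myeloid cells, was on both lists, at 31.5 CPM in EMPTY, 7.27 in RUNX1-ETO_ONLY, 86.2 in CSF3R_ONLY, 10.6 in RUNX1-ETO_FIRST and 21.5 in CSF3R_FIRST. The genes most like Epx were Fgl2, Cep164, Anxa3, Tm7sf3 and Irak3 (0.968 to 0.980). Anxa3, an annexin of neutrophil granules, averaged 159, 39.9, 132, 44.5 and 46.8 CPM in the same group order, so like Epx it was highest in EMPTY and low in every group with the fusion.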

How the data were processed

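mRNA was measured in 15 libraries of 5 groups. The authors deposited 1 table of raw read counts per gene symbol. Libraries were strand-specific mRNA preparations read on a BGI DNBSEQ instrument, per the labels' protocols. Trimmomatic, STAR, DESeq2 and mm10 are named in the submitters' processing notes without versions. The counting program, annotation, strand setting and handling of shared reads were not given in the sources used here.

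The 1 of 52328 entries that names no gene (0.0179% to 0.0305% of counts) was left out. Genes were kept by the default filter of edgeR 4.0.16, which left 13123, and scaled by TMM. All 15 libraries were fitted in 1 robust quasi-likelihood model of the 5 groups (10 residual degrees of freedom) under R 4.3.3. The 10 pair comparisons and 2 additivity contrasts were adjusted, each over all tested genes, by Benjamini-Hochberg, threshold 0.05, two-sided. The script was tested on simulated data. CPM values use TMM library sizes, and log2 CPM a prior count of 2. In these libraries 3 counts correspond to 0.153 to 0.182 CPM. Positions and transcripts are from GENCODE M21, promoters from RefSeq, and alignments were made with Biopython 1.88. Replicates of a group differed by a chi-square per degree of freedom of 2.46 to 74.7, so each library was counted. Same-numbered libraries of different groups deviated together at r = −0.243 to 0.455, with 9 of 30 pairs over 0.1, so numbers were not treated as pairs.

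The members, the 10 further gene lists and the rule for named genes were chosen with earlier results of these data known. The rule names the 3 granule genes, up to 2 rises, 2 falls and 2 abundant unchanged genes per list in the order and single-allele comparisons, any listed receptor or transcription factor by level, the 3 nearest tested genes on each side, and the 5 likest of 8539 genes whose mean log2 CPM reached 3. Alternatives were RLE scaling, library sizes alone, no filter, DESeq2 1.42.0, limma-voom (limma 3.58.1) with sample weights, no robust fit, a replicate block, the compared groups alone, no libraries low in long transcripts, and each library left out. Some genes that the rule names are not reported here.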

Additional observations from a re-analysis of the deposited data

Results flagged for a closer look

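The departure of Prg2 from additivity with the fusion first stood out by a test of the difference itself. The change of Prg2 with the receptor allele differed between cells without the fusion and cells where the fusion came first. Alone, the receptor allele went with a rise of Prg2 from 23.8 to 98.5 CPM, and beside the fusion that came first Prg2 was at 3.13 CPM against 2.97 CPM with the fusion alone. The difference of these changes was −1.98 on the log2 scale (SE 0.296, edgeR adjusted p = 2.17e-04). Leaving out each library gave −2.22 to −1.78, with edgeR adjusted p of 3.13e-07 to 0.00140. With the receptor first the same contrast was −0.03 for Prg2 (edgeR adjusted p = 0.965). That contrast was −0.47 (edgeR adjusted p = 0.0421) without the 4 libraries low in long transcripts. Csf3r averaged 420 CPM in RUNX1-ETO_FIRST as in EMPTY, and its counts cannot show whether the T618I allele was expressed there.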

How the results depend on the processing

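Over the 36 differences of Prg2, Prg3 and Epx, 544 of 575 values under other settings kept their direction and their side of the threshold. The order differences of Prg2 and Prg3 kept both throughout, at −2.04 to −1.83 and −2.42 to −1.92 with a library left out and −1.98 to −1.85 and −2.27 to −2.08 otherwise. Calls gained or lost were as follows. Epx in CSF3R_ONLY against EMPTY, −0.49, was −0.61 by limma-voom, −0.65 when the 4 libraries low in long transcripts were dropped, and −0.66 to −0.33 with a library left out. Prg3 in CSF3R_FIRST against EMPTY, −0.39, was −0.61 without those 4 and −0.73 to −0.22 with a library left out. Prg3 in RUNX1-ETO_FIRST against RUNX1-ETO_ONLY, 1.56, ranged from 1.09 to 2.19 with a library left out. Additivity of Prg3 with the fusion first, −1.42, was −1.38 by DESeq2, and that of Prg2 with the receptor first, −0.03, was −0.47 without those 4 libraries.

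Some small differences that do not pass the test in the values reported above changed sign. Epx by order was −0.30 to 0.06 with a library left out. In RUNX1-ETO_FIRST against RUNX1-ETO_ONLY, Prg2 was −0.05 with library sizes alone, −0.09 without the 4 libraries and −0.03 to 0.27 with a library left out, and Epx was −0.05, −0.13 by limma-voom and −0.08 to 0.30. Epx in CSF3R_FIRST against RUNX1-ETO_ONLY was −0.00 with library sizes alone. Additivity of Prg2 with the receptor first was 0.00 by RLE, 0.01 without a filter, by DESeq2 and with the compared groups alone, and −0.24 to 0.17 with a library left out. The cause was not tested.

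Genes called by order numbered 2407, or 4269 by limma-voom and 4449 without the 4 libraries, and 1718 to 2139 with a library left out. With the fusion alone 5117 were called, or 3388 with the compared groups alone, where fewer libraries set the spread. For additivity with the fusion first the 2078 calls became 3490 by limma-voom and 3466 without the 4 libraries. Library sizes alone moved the median of all genes to −0.19 for CSF3R_FIRST against EMPTY and −0.25 against RUNX1-ETO_ONLY. A replicate block gave −1.95, −2.23 and −0.15 for Prg2, Prg3 and Epx by order, called 2541 genes there and changed no call of the 3 genes, and 10 of 15 libraries correlated best with their own number. Depth limits Prg3 in RUNX1-ETO_ONLY (1 to 8 counts) and Epx in the groups with the fusion (7 to 13 counts).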
